A study of Homo sapiens with 9 samples.

Results

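The transcriptome of untreated A375 cells was described from 3 libraries, the members of the 0 mM metformin group, out of 9 libraries in all. A375 is an established human melanoma cell line, known for an activating mutation in the kinase gene BRAF. The members are all libraries labelled 0 mM. The other 6 libraries came from the same line given 20 or 40 mM metformin, with 3 libraries at each dose. All 9 libraries carry the genotype label WT, and the labels give no exposure time and no other agent. The study asked how metformin, a biguanide drug used in type 2 diabetes, acts on these cells, so the untreated libraries are its starting point. A375 is a single line, and nothing in the labels says that the 3 libraries came from separate cultures. SDs here thus describe how far these libraries vary, and that variation may be technical. The p-values weigh dose differences against that variation, so they need not hold for separate cultures.

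Melanoma arises from melanocytes, the pigment cells of the neural crest lineage. SOX10, PAX3 and MITF are transcription factors of that lineage, and MITF drives the genes that make melanin. Melanoma cell lines are known to differ in how much of this pigment programme they keep, and lines that have lost it often carry neural crest or invasive markers such as NGFR and AXL. Metformin is a cation that enters cells through carriers, inhibits the mitochondrial respiratory chain and is known for activating the energy sensor AMPK. Carriers, AMPK subunits and stress regulators present before treatment are therefore part of the description.

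Total counts were 75400950, 74816762 and 75043512 in replicates 1, 2 and 3 of the untreated group. Levels are given as FPKM, fragments per kilobase of transcript scaled to library size, so that genes of different length can be compared. Ratios between genes depend on the length that FPKM divides by, and counts can give another order. Each level is the mean ± SD over n = 3 libraries unless 3 library values are listed, which are then in the order of replicates 1, 2 and 3. A gene was counted as expressed at a mean of at least 1 FPKM and as nearly absent under 0.1 FPKM. Over genes, log2 levels of the 3 pairs of libraries had a Pearson r between 0.993 and 0.994, a description across genes, which are not replicates. Gene positions were copied from the deposited table, and the sources name no genome build for it. In bulk RNA, fewer cells with a transcript and less of it per cell cannot be told apart.

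Of 37118 genes listed, 12255 (33.02%) were expressed. Replicates 1, 2 and 3 had 12222, 12292 and 12338 genes at 1 FPKM or more. The range was wide, with 8037 genes between 1 and 10 FPKM, 3875 between 10 and 100, 343 at 100 or more and 17 at 1000 or more. A further 8137 genes lay between 0.1 and 1 FPKM, and 16726 were nearly absent. Of 17057 protein-coding genes listed, 10514 (61.6%) were expressed. The same level was reached by 717 of 9647 long noncoding RNA genes (7.43%) and 763 of 6416 pseudogenes (11.9%). Counts of expressed members in the lists of coding genes below stand beside the 61.6%.

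**Figure D1:**
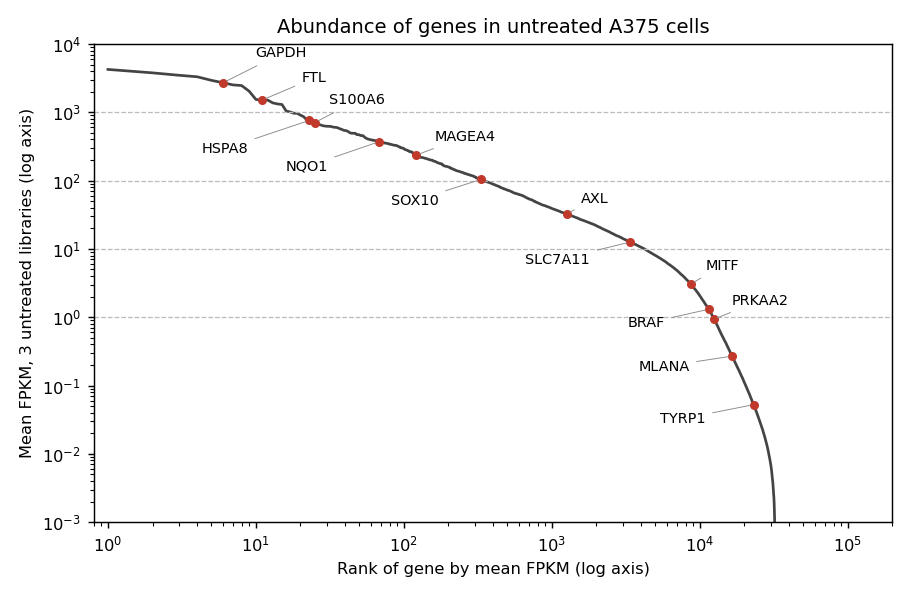
Mean FPKM over the 3 untreated libraries (vertical, log axis) against the rank of each gene (horizontal, log axis), with dashed lines at 1, 10, 100 and 1000 FPKM and genes of the text marked. The curve falls from GAPDH at 2706 FPKM through SOX10 at 104 and MITF at 3.06 to MLANA at 0.269 and TYRP1 at 0.0524.

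A small number of genes held much of the signal. The 10 highest genes took 11.5% ± 1.31 of summed FPKM, the 100 highest 30.5% ± 1.22 and the 1000 highest 61.5% ± 0.491. The 464 highest genes together reached 50% of the summed mean FPKM. Among the 100 highest, 24 were encoded by mitochondrial DNA, 26 were cytosolic ribosomal proteins, 5 were pseudogenes and 42 were other coding genes. The lowest of the 100 was at 292 FPKM.

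Mitochondrially encoded genes were at the top, with 9 of the 10 highest places. MT-CO1, a core subunit of cytochrome c oxidase, was at 3725, 4341 and 4654 FPKM. MT-ATP8, a subunit of ATP synthase, was at 3115, 3638 and 4583 FPKM, and MT-CO3, a second oxidase subunit, at 3114, 3405 and 3943 FPKM. Replicate 3 was highest and replicate 1 lowest for all 3 of these genes. The 37 mitochondrial genes took 13.2, 14.4 and 16.6% of summed FPKM but 2.76, 3.08 and 3.53% of counts, since many of them are short and FPKM divides by length. All 13 mitochondrially encoded proteins were among the 100 highest genes.

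Cytosolic ribosomal proteins took 8.20% ± 0.310 of summed FPKM, and 84 of 86 were expressed. The highest were RPL41 at 1044 ± 13.8, RPS2 at 909 ± 26.5 and RPS6 at 683 ± 12.9 FPKM. The lowest were the variant forms RPL10L at 0.0625 and RPL3L at 0.0464 FPKM. Ribosomal protein genes have many processed pseudogenes, and the sources used here do not say how reads shared with these copies were counted.

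Outside both groups, the 12 highest coding genes were housekeeping, iron storage, cytoskeletal and chaperone genes. GAPDH, the glycolytic dehydrogenase, led at 2678, 2772 and 2669 FPKM. FTL, the ferritin light chain that forms the iron storage shell, was at 1604, 1518 and 1410 FPKM. FTH1, the ferritin heavy chain that oxidises iron, was at 1416, 1321 and 1236 FPKM. Both ferritin chains were highest in replicate 1 and lowest in replicate 3, and FTL exceeded FTH1 in each library, by a ratio of 1.14 ± 0.00835. Together the ferritin chains took 1.22, 1.12 and 1.04% of summed FPKM. Both have pseudogene copies, such as FTH1P2 at 12.3 FPKM.

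EEF1A1, which brings aminoacyl-tRNA to the ribosome, was at 1509.6 ± 29.4 FPKM. The chaperones HSP90AB1, HSPA8 and HSP90AA1 were at 966 ± 4.63, 762 ± 38.8 and 630.1 ± 8.30 FPKM. The actin-binding proteins TMSB10 and PFN1 were at 969 ± 17.2 and 625 ± 12.2 FPKM. The remaining members of the 12 were the nucleolar protein NPM1 (725 ± 2.81), the calcium-binding S100A6 (708 ± 63.9) and the tubulin TUBA1B (609 ± 18.4). S100A6 had the widest relative spread of these, with 776 FPKM in replicate 1 and 649.9 in replicate 3.

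The start regions of expressed genes were compared in sequence, from 250 bases before to 50 after the RefSeq start (GRCh38.p14). Of 16467 nuclear coding genes considered, 13496 (82.0%) had such a sequence. The CpG ratio is the number of CG pairs over the number that the C and G content would give. Its median was 0.839 over 5346 promoters of genes between 1 and 10 FPKM, 0.877 over 3136 between 10 and 100 FPKM and 0.882 over 243 at 100 FPKM or more. Under 1 FPKM fewer than 80% of genes had a sequence, so this check is void for them. Cancer-testis antigens, germline genes that many melanomas express and that other adult tissues are known to silence by DNA methylation, are compared here over their expressed members. Of 28 such members, 23 had a sequence, and their median ratio was 0.508, against 0.854 over all 8725 promoters of genes at 1 FPKM or more. A ratio of at least 0.6 was found in 6 of these 23, against 86.2% of the 8725. The 23 count similar copies singly, such as MAGEA3 and MAGEA6 at 0.664 each and XAGE1A and XAGE1B at 0.592 each. The pair below shows a high and a low ratio at similar G and C content, 60.7% and 62.3%. The first is EEF1A1, a gene used by every cell (chr6:73520983-73521282, minus strand), with 24 CG pairs and a ratio of 0.891. The second is MAGEA4, the highest cancer-testis antigen here (chrX:151912224-151912523, plus strand), with 10 CG pairs and a ratio of 0.354. Capitals mark each CG pair, and both run 5′ to 3′.
EEF1A1: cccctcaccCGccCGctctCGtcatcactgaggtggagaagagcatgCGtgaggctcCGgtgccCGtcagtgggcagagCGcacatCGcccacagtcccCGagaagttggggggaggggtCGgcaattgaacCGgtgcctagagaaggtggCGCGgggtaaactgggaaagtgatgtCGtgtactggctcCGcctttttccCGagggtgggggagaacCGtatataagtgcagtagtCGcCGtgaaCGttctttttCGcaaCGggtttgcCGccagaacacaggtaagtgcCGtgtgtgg
MAGEA4: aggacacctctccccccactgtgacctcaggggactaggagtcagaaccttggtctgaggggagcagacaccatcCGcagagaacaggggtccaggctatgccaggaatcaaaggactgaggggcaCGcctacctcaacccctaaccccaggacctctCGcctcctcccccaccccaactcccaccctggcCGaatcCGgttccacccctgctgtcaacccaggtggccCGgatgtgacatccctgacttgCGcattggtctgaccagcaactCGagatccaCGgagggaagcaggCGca

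Both genes were high, at 1509.6 FPKM for EEF1A1 and 236 FPKM for MAGEA4, so within this pair a high level occurred at either CpG density. The TATA box, searched as TATAAA on both strands, was found in 4.73% of promoters of genes between 1 and 10 FPKM, 4.88% between 10 and 100 FPKM and 11.5% at 100 FPKM or more. Over all promoters of genes at 1 FPKM or more it was found in 4.97%. These matches are letters in a window, not measured binding sites.

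Of 21 listed neural crest and melanocyte transcription factors, 17 were expressed, beside 61.6% of all protein-coding genes. Of the 21, 3 reached 10 FPKM. SOX10, the neural crest and melanocyte regulator (ENSG00000100146, chromosome 22, 37970686 to 37984555), was at 93.7, 105 and 114 FPKM, rank 332 of all genes. TFAP2C, an AP-2 factor, was at 48.1, 48.4 and 48.4 FPKM. SOX5, a SOXD factor, was at 16.6 ± 1.57, TFAP2B at 7.96 ± 1.81 and the mesenchymal factor SNAI1 at 6.79 ± 0.664 FPKM. SOX10 stood far above the list median of 3.89 FPKM, which lies beside a median of 2.52 FPKM over all protein-coding genes.

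MITF, the melanocyte master regulator (ENSG00000187098, chromosome 3, 69739464 to 69968336), was at 2.60, 3.22 and 3.35 FPKM. PAX3, which acts upstream of it, was at 1.86, 1.87 and 1.84 FPKM. SOX10 was 34.2 ± 1.66 times MITF, and this ratio lay between 32.7 and 36.001 in all 3 libraries. SOX9, a SOXE relative that is often high where SOX10 is low, was at 0.0557, 0.0661 and 0.0898 FPKM. The melanoma long noncoding RNA SAMMSON was also nearly absent, at 0.0555 ± 0.00473 FPKM. AP-2 members differed widely, with TFAP2C 68.2 ± 7.11 times TFAP2A.

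Of 16 listed pigment and melanosome genes, 6 were expressed and 6 were nearly absent. The expressed members were led by vesicle proteins that other cells also use. CD63, a tetraspanin of endosomes and melanosomes, was at 131, 137 and 131 FPKM. GPNMB, a melanosome and lysosome glycoprotein, was at 34.5, 32.5 and 32.6 FPKM, and RAB38, a melanosome-sorting GTPase, at 14.4 ± 0.495 FPKM. The receptors MC1R and EDNRB were at 2.98 ± 0.253 and 2.76 ± 0.530 FPKM.

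The enzymes and structural proteins of melanin synthesis were low. TYR, the rate-limiting tyrosinase (ENSG00000077498, chromosome 11, 89177875 to 89295759), had 0 counts in each of the 3 libraries, which allows up to 3 counts in each. TYRP1, a tyrosinase relative, was at 0.0753, 0.0122 and 0.0698 FPKM. DCT, the dopachrome tautomerase, was at 0.320, 0.573 and 0.463 FPKM. MLANA, the melanoma antigen Melan-A, was at 0.318, 0.249 and 0.241 FPKM, and PMEL, which builds melanosome fibrils, at 0.169, 0.164 and 0.258 FPKM. None of these 5 reached 1 FPKM in any of the 3 libraries. The melanosomal GPR143 (0.0830 FPKM) and the transporter SLC45A2 (0.0212 FPKM) were nearly absent as well, and the channel gene TRPM1 had 0 counts. KIT and SLC24A5 were not found under these symbols among the 37118 genes listed.

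**Figure D2:**
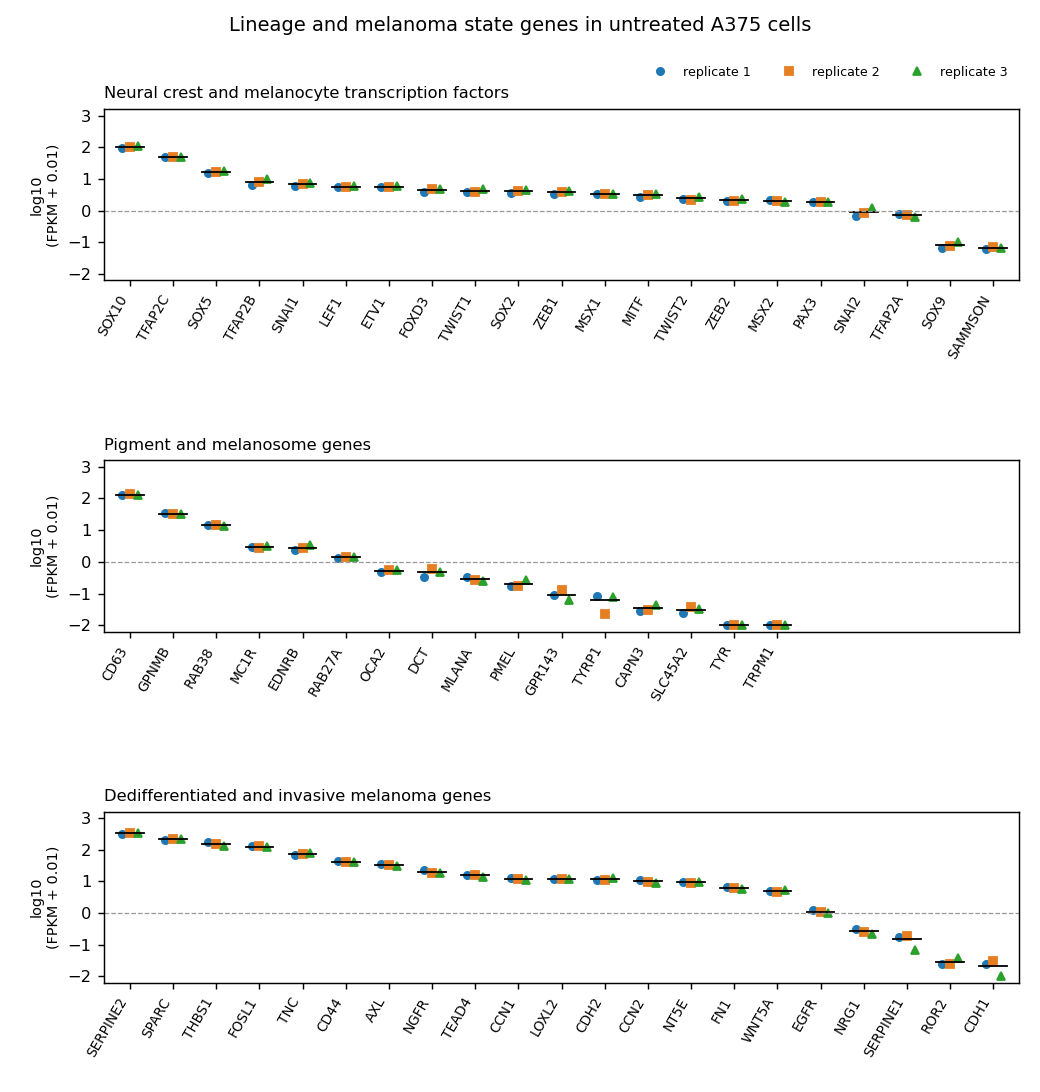
FPKM of each gene in each untreated library as log10(FPKM + 0.01) (vertical, points by replicate, bar at the mean), with a dashed line at 1 FPKM, for 3 lists ordered by mean. SOX10 is highest in the top panel at 104 FPKM, the pigment genes to the right of RAB27A lie under the line, and TYR and TRPM1 sit at the floor that stands for 0 counts.

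MITF binds the M-box, whose core is CACATG, and this core was searched on both strands of the same start regions. Of the 6 expressed pigment genes, 5 had a sequence and 4 of these held the core (CD63, GPNMB, MC1R and EDNRB), against 6.42% of the 8725 promoters of genes at 1 FPKM or more. The 3 regions below show it (in capitals, as CACATG or its reverse complement CATGTG) in front of pigment genes of very different level: TYR with 0 counts, TYRP1 at 0.0524 FPKM and GPNMB at 33.2 FPKM. They lie at chr11:89177625-89177924, chr9:12693135-12693434 and chr7:23246525-23246824 of GRCh38.p14, all on the plus strand, and each is printed 5′ to 3′.
TYR: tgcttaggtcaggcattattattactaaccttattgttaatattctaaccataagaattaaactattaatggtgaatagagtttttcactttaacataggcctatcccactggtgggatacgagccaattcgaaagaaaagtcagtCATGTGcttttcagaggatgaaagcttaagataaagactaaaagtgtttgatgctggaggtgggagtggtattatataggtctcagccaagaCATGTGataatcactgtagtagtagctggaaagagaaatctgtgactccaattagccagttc
TYRP1: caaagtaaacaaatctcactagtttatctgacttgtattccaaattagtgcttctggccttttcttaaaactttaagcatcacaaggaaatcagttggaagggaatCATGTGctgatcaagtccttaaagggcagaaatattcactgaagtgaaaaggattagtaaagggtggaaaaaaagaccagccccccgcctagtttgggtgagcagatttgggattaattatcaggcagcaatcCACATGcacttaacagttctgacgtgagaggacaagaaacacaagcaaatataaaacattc
GPNMB: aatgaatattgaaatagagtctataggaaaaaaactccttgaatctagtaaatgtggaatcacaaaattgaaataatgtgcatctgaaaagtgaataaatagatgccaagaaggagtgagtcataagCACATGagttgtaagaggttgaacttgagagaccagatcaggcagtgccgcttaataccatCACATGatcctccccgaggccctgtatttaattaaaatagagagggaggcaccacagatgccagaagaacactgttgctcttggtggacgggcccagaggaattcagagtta

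Each of the 3 holds 2 matches, but regions without the core are not printed, so these equal counts say nothing of level. Among pigment genes under 1 FPKM with a sequence, OCA2, GPR143, TYRP1, TYR and TRPM1 held the core. DCT, MLANA and CAPN3, also under 1 FPKM, did not. RefSeq gives 1 start per gene here, and it need not be the start used in these cells. For TYRP1 and GPNMB it lies inside the gene as the deposited table delimits it, not at its edge.

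Genes of dedifferentiated or invasive melanoma were expressed in 17 of 21 cases, with a median of 11.8 FPKM, against 2.52 over all 17057 protein-coding genes. SERPINE2, a secreted protease inhibitor, was at 319, 328 and 339 FPKM. SPARC, a matrix glycoprotein, was at 198, 215 and 217 FPKM, THBS1, thrombospondin, at 151 ± 19.01, FOSL1, an AP-1 subunit, at 124 ± 6.34 and TNC, tenascin, at 72.4 ± 5.02 FPKM. AXL, a receptor tyrosine kinase of the invasive state, was at 34.6, 32.3 and 30.9 FPKM. NGFR, the neural crest nerve growth factor receptor, was at 21.9, 17.8 and 17.9 FPKM. EGFR was near the threshold at 1.22, 1.08 and 0.973 FPKM, and AXL was 30.03 ± 1.65 times EGFR. ROR2, a WNT5A receptor, and CDH1, the epithelial cadherin, were nearly absent at 0.0195 and 0.0114 FPKM. SOX10 and AXL were thus both expressed in every library.

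Among melanoma-associated surface and secreted proteins, 15 of 16 were expressed. The protease inhibitors TIMP3 and TIMP1 led at 238 ± 2.56 and 128 ± 6.08 FPKM. The melanoma proteoglycan CSPG4 was at 53.9 ± 3.05, the secreted melanoma protein MIA at 46.4 ± 3.30 and the adhesion molecule MCAM at 20.8 ± 0.711 FPKM. TIMP3 was 12.2 ± 0.177 times the protease MMP2. NCAM1, at 0.301 FPKM, was the member under 1 FPKM.

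S100 proteins, small calcium sensors, were expressed in 12 of 14 cases. S100A6, S100A10, S100A11, S100A4 and S100A16 were the highest, at 708 ± 63.9, 365 ± 4.15, 330.4 ± 7.41, 128 ± 1.82 and 78.9 ± 2.07 FPKM. S100B, the pathology marker of melanoma, was lower, at 7.96, 10.4 and 12.3 FPKM, and its libraries spread by a CV (SD over mean) of 21.3%. S100A7, S100A8, S100A9, S100A12 and S100G were not found under these symbols among the 37118 genes listed.

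Of 38 cancer-testis antigens, 28 were at 1 FPKM or more, beside 61.6% of all protein-coding genes. Their median was 9.40 FPKM, beside 2.52 FPKM over all protein-coding genes. MAGEA4 (ENSG00000147381, chromosome X, 151912509 to 151925170) was at 239, 239.8 and 229 FPKM. PAGE5, a PAGE family antigen, was at 135 ± 6.95 and MAGEA3 at 88.6 ± 2.26 FPKM. The near-identical XAGE1A and XAGE1B were at 108 ± 19.5 and 59.8 ± 9.82 FPKM, with CVs of 18.1% and 16.4%, while their sum had a CV of 6.31%. The split of reads between such copies is unknown, so single-copy values of XAGE1, MAGEA3 and MAGEA6, CTAG1, GAGE and CT45A genes are uncertain. PRAME, a melanoma diagnostic antigen, was at 29.3, 32.1 and 32.03 FPKM. Not every member was on, since MAGEA9 and the meiotic gene SYCP1 had 0 counts and MAGEA8, SSX3, DDX53 and TEX14 were under 0.1 FPKM.

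Antigen presentation genes were expressed in 17 of 22 cases, and class II genes were the highest. HLA-DRA, the class II alpha chain, was at 238, 265 and 249.97 FPKM, and CD74, its invariant chain, at 214, 235 and 231 FPKM. CIITA, the transactivator of class II genes, was at 6.02, 6.71 and 6.66 FPKM. B2M, the light chain of class I, was at 67.2 ± 1.29 FPKM. HLA-DPA1 was at 44.1 ± 1.75 FPKM. Class II was uneven, with HLA-DQB1 at 0.967 and HLA-DQA1 at 0.265 FPKM, and values of single HLA genes are uncertain because these genes are similar to each other and vary between people. The checkpoint ligand PDCD1LG2 was nearly absent at 0.0223 FPKM.

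In the MAPK cascade, the growth pathway that BRAF drives, 12 of 14 members were expressed. The kinase MAP2K1 was at 25.2 ± 0.863 FPKM, and the GTPase NRAS was at 25.1 ± 0.700 FPKM. MAP2K2 was at 20.7 ± 0.815 and the RAF kinase ARAF at 18.4 ± 0.848 FPKM. BRAF itself was among the lowest members, at 1.27, 1.31 and 1.34 FPKM, and NRAS was 19.2 ± 0.487 times BRAF. FPKM gives the amount of transcript and says nothing of the mutation or of kinase activity.

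All 15 listed output and feedback genes of the pathway were expressed, with a median of 30.6 FPKM. FOSL1 led at 124 ± 6.34 FPKM, followed by the early response gene IER3 (96.2 ± 2.70), cyclin D1, CCND1 (63.9 ± 3.88), the feedback inhibitor SPRY2 (60.1 ± 3.92) and the ETS factor ETV4 (59.2 ± 2.09). The ERK phosphatases DUSP4 and DUSP6 were at 42.4 ± 0.975 and 30.6 ± 1.07 FPKM. The lowest member was SPRY1, at 1.86 FPKM.

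Of 32 receptor tyrosine kinases, 18 were expressed and 9 were nearly absent. EPHA2, an ephrin receptor, was at 50.9, 46.7 and 41.8 FPKM, and ERBB3, a neuregulin receptor, at 33.2, 38.0004 and 40.6 FPKM. AXL came next, the hepatocyte growth factor receptor MET was at 16.8 ± 1.40 and the collagen receptor DDR2 at 10.6 ± 0.445 FPKM. ERBB4, FGFR2, NTRK2 and NTRK3 lay between 0.00431 and 0.0454 FPKM. FLT3 and KIT were not found under these symbols among the 37118 genes listed.

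Cell cycle and tumour suppressor genes were expressed in 18 of 23 cases. CDK4, the kinase of the early cycle, was at 90.4 ± 3.92, its cyclin CCND1 at 63.9 ± 3.88 and the proliferation marker MKI67 at 60.3 ± 2.02 FPKM. The CDK inhibitor CDKN1A and the kinase CDK2 were at 32.8 ± 1.94 and 29.2 ± 1.03 FPKM. CDKN2A, which encodes the CDK4 inhibitor p16 and ARF, was at 0.356, 0.192 and 0.245 FPKM, while its neighbour on chromosome 9, MTAP, was at 15.8 ± 0.644 FPKM. The D-type cyclin CCND2 had 0 counts and MYCN was at 0.00541 FPKM. TERC, the telomerase RNA, which has no poly(A) tail, was at 0.0196 FPKM. CDKN2B was not found under this symbol among the 37118 genes listed.

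Apoptosis regulators of the BCL2 family were expressed in 11 of 16 cases. MCL1, a survival protein, was at 98.8, 98.4 and 97.98 FPKM and was 91.7 ± 16.3 times BCL2. The effectors BAX and BAK1 were at 36.7 ± 3.74 and 20.9 ± 1.21 FPKM. BCL2L1, which encodes BCL-XL, was at 22.4 ± 1.01 and BAD at 12.2 ± 0.147 FPKM. HRK was nearly absent at 0.0959 FPKM.

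Carriers known to move metformin or other organic cations were few and low, with 3 of 10 expressed and a summed level of 10.8 ± 0.417 FPKM. SLC19A2, a thiamine carrier, was at 6.61, 6.49 and 5.82 FPKM. SLC47A1, the exporter MATE1, was at 1.49, 1.31 and 1.59 FPKM, and SLC22A4, the carnitine-family carrier OCTN1, at 1.29, 1.40 and 1.31 FPKM. The libraries of SLC47A1 and SLC22A4 overlapped, so these neighbours in rank were not separated. SLC19A3, the other thiamine carrier, was at 0.832, 0.781 and 0.766 FPKM, and SLC22A5, OCTN2, at 0.701, 0.691 and 0.665 FPKM.

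SLC22A3, SLC29A4, SLC47A2 and SLC6A4 were nearly absent. SLC22A3, which encodes OCT3, had 0 counts in each library, which allows up to 3 in each. SLC29A4, the plasma membrane monoamine transporter, had 63, 51 and 32 counts (0.0990 ± 0.0307 FPKM). SLC47A2, MATE2, had 8, 18 and 43 counts, and SLC6A4, the serotonin transporter, 8, 8 and 17 counts. With so few counts, these low levels carry a wide relative error. SLC22A2 was not found under this symbol among the 37118 genes listed.

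Glucose and monocarboxylate transporters were expressed in 11 of 19 cases. SLC2A1, the glucose carrier GLUT1, was at 32.2, 29.2 and 27.9 FPKM, and it was 4.54 ± 0.337 times SLC2A3, the carrier GLUT3. SLC16A1, the lactate carrier MCT1, was at 34.8, 32.3 and 32.4 FPKM and was 29.8 ± 1.66 times SLC16A3, the carrier MCT4. BSG, the chaperone of both lactate carriers, led the list at 108 ± 3.78 FPKM. The mitochondrial pyruvate carrier subunits MPC2 and MPC1 were at 11.4 ± 0.444 and 9.67 ± 0.408 FPKM. The liver and muscle glucose carriers SLC2A2 and SLC2A4 had 0 counts, and SLC2A5, SLC2A12 and SLC5A2 were under 0.1 FPKM.

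Amino acid transporters were expressed in 19 of 32 cases, with a summed level of 629 ± 29.2 FPKM. SLC7A5, the large neutral amino acid carrier LAT1, was at 286, 267 and 243 FPKM, and its heavy chain partner SLC3A2 at 89.3, 83.5 and 72.4 FPKM. The glutamine carriers SLC1A5, SLC38A2 and SLC38A1 were at 83.7 ± 1.95, 56.7 ± 1.27 and 27.1 ± 0.866 FPKM. SLC7A11, the cystine importer that shares SLC3A2, was at 12.4, 12.3 and 13.05 FPKM, so SLC7A5 was 21.1 ± 2.27 times SLC7A11. SLC3A1, SLC7A9, SLC38A4, SLC38A5 and SLC1A2 lay between 0.00184 and 0.0245 FPKM.

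**Figure D3:**
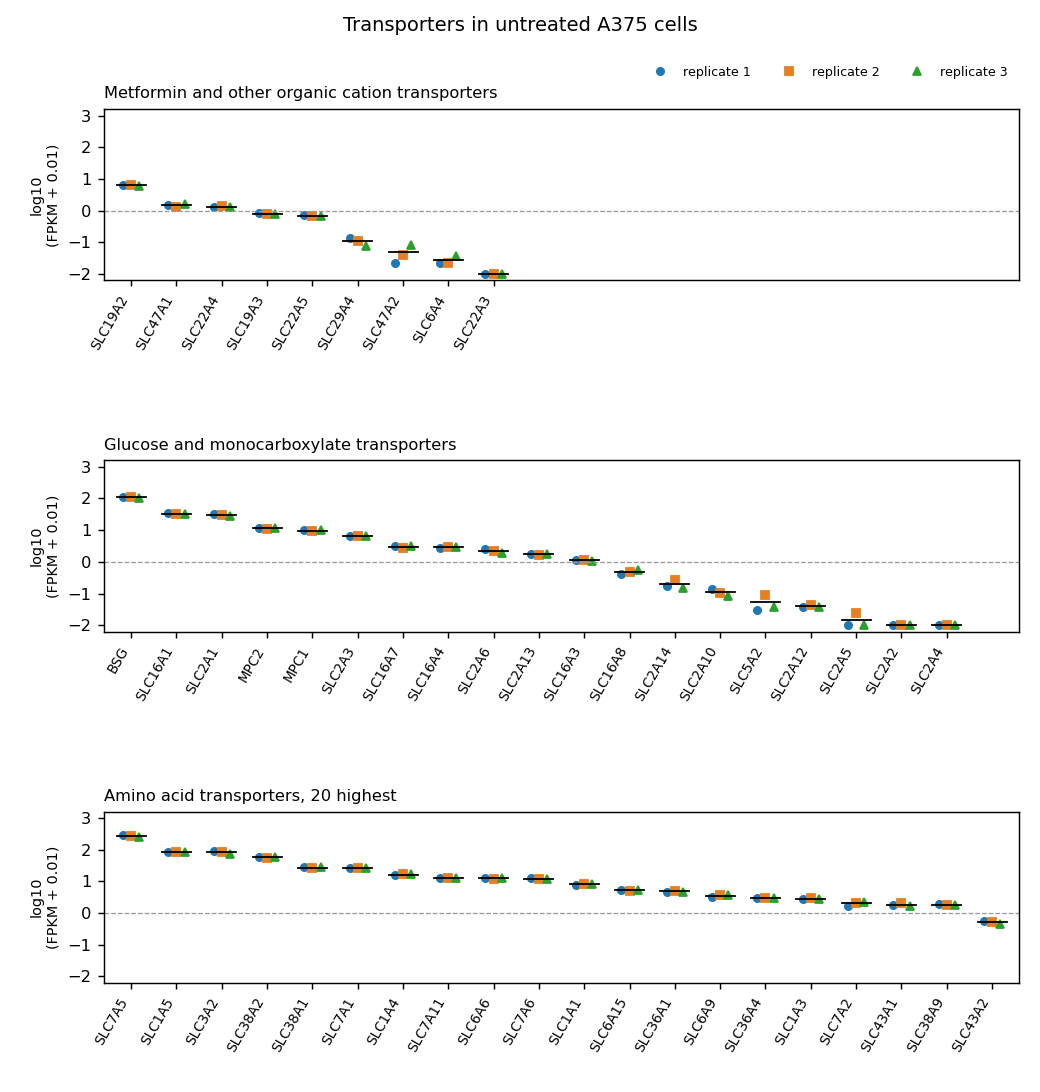
FPKM of transporter genes in each untreated library as log10(FPKM + 0.01) (vertical, points by replicate, bar at the mean), with a dashed line at 1 FPKM. SLC19A2 at 6.31 FPKM is the highest metformin or organic cation carrier and SLC22A3 sits at the floor that stands for 0 counts, while SLC7A5 at 266 FPKM heads the amino acid carriers.

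For most glycolytic steps several isoenzymes exist, and 20 of 26 were expressed. Besides GAPDH, the highest were ENO1, enolase (589 ± 10.6 FPKM), PKM, pyruvate kinase (329.7 ± 3.73), TPI1, triosephosphate isomerase (318 ± 5.82) and ALDOA, aldolase (301 ± 4.69). The lactate dehydrogenase chain LDHB was at 297, 302 and 297 FPKM against 198, 204 and 203 for LDHA, a ratio of 1.48 ± 0.0174. In counts the order was reversed, with 74793, 74402 and 73497 for LDHB against 100949, 101808 and 101544 for LDHA. The hexokinases HK1 and HK2 had a ratio of 1.47 ± 0.0273. ENO1 was 89.1 ± 6.21 times the neuronal form ENO2. Tissue-restricted forms were nearly absent, among them PKLR of liver and red cells, HK3, and GAPDHS of the testis, these 3 between 0.00458 and 0.0216 FPKM.

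Glutathione peroxidases and ferroptosis defence genes were expressed in 20 of 22 cases. Ferroptosis is an iron-dependent cell death by lipid peroxidation, which GPX4 prevents with glutathione. The highest members were antioxidant enzymes of wider use. PRDX1, a peroxiredoxin, was at 572 ± 23.5 FPKM, NQO1, a quinone reductase, at 382, 375.3 and 356 FPKM, and TXN, thioredoxin, at 299 ± 19.6 FPKM. GPX1 and PRDX6 were at 180.1 ± 12.6 and 138 ± 1.92 FPKM. GPX4 was at 27.8, 29.7 and 29.6 FPKM, and GPX1 was 6.21 ± 0.576 times GPX4. AIFM2, which encodes FSP1, was at 6.52 ± 0.275 FPKM. GPX2, the gut form, was nearly absent at 0.0758 FPKM.

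Of 22 genes of ferroptosis promotion and lipid remodelling, 14 were expressed. TFRC, the transferrin receptor that imports iron, was at 63.3, 60.3 and 59.2 FPKM. The channel proteins VDAC3 and VDAC2 were at 35.9 ± 1.29 and 34.2 ± 1.63 FPKM, the ferritin autophagy receptor NCOA4 at 34.9 ± 0.6001 and the elongase ELOVL5 at 28.4 ± 0.565 FPKM. ACSL4, which activates polyunsaturated fatty acids, was at 8.93, 8.94 and 10.1 FPKM. The lipoxygenases ALOX5, ALOX12B, ALOX15B and ALOXE3 and the oxidase NOX1 lay between 0.00270 and 0.0882 FPKM. ALOX15 was not found under this symbol among the 37118 genes listed.

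In iron handling, 13 of 19 genes were expressed and the ferritin chains outweighed all others. After FTL and FTH1 came the iron chaperones PCBP1 (211 ± 5.30 FPKM) and PCBP2 (67.6 ± 2.75). HMOX1, heme oxygenase, was at 29.4, 22.5 and 18.8 FPKM, a CV of 22.9%. Its counts of 5702, 4259 and 3576 make this spread far wider than counting error. SLC40A1, the iron exporter ferroportin, was at 0.0642 FPKM, and TFR2, TF, SLC11A1 and HAMP, genes of liver and macrophage iron traffic, were between 0.00794 and 0.0353 FPKM.

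Genes of AMPK and its upstream kinases were expressed in 13 of 17 cases. AMPK is a trimer of a catalytic alpha, a scaffold beta and a nucleotide-binding gamma subunit. PRKAA1, the alpha 1 subunit, was at 13.5, 13.2 and 14.1 FPKM and PRKAA2, the alpha 2 subunit, at 0.858, 0.930 and 1.03 FPKM, a ratio of 14.5 ± 1.07. The gamma 1 subunit PRKAG1 led the list at 28.01 ± 1.23 FPKM. Both beta subunits were expressed, PRKAB2 at 5.53 ± 0.162 and PRKAB1 at 5.29 ± 0.274 FPKM, and their libraries overlapped. STK11, the upstream kinase LKB1, was at 3.51, 3.77 and 3.53 FPKM, and its scaffold CAB39 was at 14.8 ± 0.539 FPKM. MTOR and its partner RPTOR, on the pathway AMPK restrains, were at 10.7 ± 0.330 and 6.85 ± 0.330 FPKM.

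All 18 listed genes of the integrated stress response were expressed before treatment. ATF4, the transcription factor of this response, was at 114, 123 and 123 FPKM. The phosphatase subunit PPP1R15A was at 32.2 ± 1.04, the initiation factor EIF2S1 at 25.3 ± 0.750, the pseudokinase TRIB3 at 23.9 ± 0.707 and the factor CEBPB at 22.3 ± 0.484 FPKM. Among the kinases that start it, EIF2AK1 (HRI) was 6.35 ± 0.293 times EIF2AK3 (PERK). DDIT3, the stress factor CHOP, was at 9.49, 8.42 and 8.28 FPKM, and ATF3 was lowest at 1.41 ± 0.313 FPKM.

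Endoplasmic reticulum chaperones and sensors were expressed in 12 of 14 cases. The lectin chaperone CALR was at 385 ± 8.94 FPKM, HSPA5 (BiP) at 256 ± 4.07, HSP90B1 at 191 ± 1.69, CANX at 135 ± 3.73 and PDIA3 at 87.7 ± 0.872 FPKM. The sensor gene ERN1 (IRE1 alpha) was at 0.551 FPKM and the gut form ERN2 at 0.00116 FPKM. Other sensor genes were higher, with ATF6 at 9.24 and ATF6B at 11.4 FPKM.

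Heat shock proteins and factors were expressed in 16 of 20 cases, with a median of 67.2 FPKM. After HSP90AB1, HSPA8 and HSP90AA1 came the mitochondrial chaperonins HSPD1 (285 ± 4.86 FPKM) and HSPE1 (100.3 ± 4.91). The inducible, near-identical HSPA1A and HSPA1B were at 84.8 ± 8.98 and 74.99 ± 9.20 FPKM, and their sum had a CV of 11.4%. The constitutive HSPA8 was 9.02 ± 0.557 times HSPA1A. HSF1, the master factor, was at 11.6 ± 0.623 FPKM.

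Other stress transcription factors were expressed in 20 of 27 cases. HIF1A, the hypoxia factor, was at 52.5, 53.7 and 53.9 FPKM and was 195 ± 23.5 times its relative EPAS1. NFE2L1 was at 41.03 ± 0.158 and NFE2L2, the antioxidant factor NRF2, at 16.9, 17.3 and 17.3 FPKM, with its repressor KEAP1 at 21.9 ± 1.23 FPKM. TFE3, a lysosomal factor of the MITF family, was at 20.7 ± 0.403 FPKM, above MITF (3.06), TFEB (0.195) and TFEC (0.0289). HIF3A had 0 counts, and MLXIPL and TP63 were at 0.0286 and 0.00387 FPKM. Of 3 metallothioneins in the table, MT2A was at 197, 212 and 204 FPKM, MT1X at 1.60 ± 0.263 and MT1F at 0.0153 FPKM, and MT2A was 131 ± 23.6 times MT1X. The other 8 metallothioneins of the list were not found under their symbols among the 37118 genes listed.

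Cytoskeletal genes followed a non-muscle pattern, with 13 of 23 actins and tubulins expressed. TUBA1B, TUBB, ACTG1, ACTB and TUBB4B were at 609, 546, 494, 492 and 422 FPKM, and the ratio of ACTB to ACTG1 was 0.9995 ± 0.0513. In counts ACTB was higher in each library, at 185858, 179356 and 176690 against 129706, 119325 and 111305 for ACTG1. The muscle actins ACTA1, ACTC1 and ACTG2 lay between 0.0204 and 0.0618 FPKM, TUBA4A was at 0.0797 FPKM and TUBA3C had 0 counts. Among intermediate filaments and lamins, 12 of 20 were expressed. VIM, the mesenchymal vimentin, was at 453, 479.5 and 479.7 FPKM, LMNA at 184 ± 3.26, LMNB1 at 58.1 ± 0.605 and LMNB2 at 43.2 ± 0.960 FPKM. The epithelial keratin KRT18 was at 69.6 ± 1.86 FPKM, 23.4 ± 0.308 times its usual partner KRT8. The neural and muscle filament genes DES, GFAP, PRPH and NEFM lay between 0.00223 and 0.0785 FPKM, and INA had 0 counts.

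Of 16 long noncoding RNAs, 12 were expressed. NORAD, a genome stability RNA, was at 87.6, 87.2 and 88.96 FPKM. The small nucleolar RNA hosts SNHG1, SNHG6 and GAS5 were at 49.1 ± 1.35, 46.5 ± 0.513 and 46.3 ± 1.40 FPKM, and the nuclear RNA MALAT1 was at 32.05 ± 2.32 FPKM.

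Some markers of several other cell types were at or near 0, while other markers of the same types were expressed. Among leukocyte markers, CD3E and MS4A1 had 0 counts and PTPRC was at 0.00137 FPKM, while CD68 and LYZ were at 3.90 ± 0.411 and 3.29 ± 0.426 FPKM. The epithelial markers EPCAM and CDH1 were at 0.0797 and 0.0114 FPKM beside the high KRT18, and 3 of 6 epithelial markers were expressed. Of the keratinocyte markers, KRT5 and TP63 were at 0.0340 and 0.00387 FPKM, while KRT10 and KRT14 were at 17.9 ± 1.62 and 7.33 ± 0.443 FPKM. The fibroblast collagens COL1A1, COL1A2 and COL3A1 were at 0.122, 0.0172 and 0.00993 FPKM, and LUM, a matrix proteoglycan, was at 3.24 ± 0.333 FPKM. Of 7 fibroblast markers, 2 were expressed. Endothelial VWF and CDH5 were at 0.0489 and 0.0961 FPKM with KDR at 3.03 ± 0.291 FPKM. TUBB3, a tubulin of neurons, was at 58.8 ± 2.21 FPKM with RBFOX3 at 0.0441 FPKM and ELAVL3 at 0 counts. Summed levels of the erythroid, hepatocyte and skeletal muscle lists were 1.85 ± 0.379, 0.576 ± 0.195 and 0.364 ± 0.0369 FPKM. Of the melanoma lineage, SOX10, PRAME, MCAM and S100B were expressed, while TYR, TYRP1, DCT, MLANA and PMEL were under 1 FPKM.

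At the other end, 4826 listed genes had 0 counts in all 3 untreated libraries, and 804 of them were protein-coding, 1679 long noncoding RNA and 1414 pseudogenes. Over the pooled counts of the 3 libraries, 0 allows a level of up to 0.0133 CPM (counts scaled to library size), for counting error only. The table lists only genes with a count in at least 1 of the 9 libraries, so each of these genes was counted in a treated library. In those libraries most stayed low. Of the 4826, 132 reached a mean of 0.1 FPKM at 20 mM and 176 did at 40 mM. A mean of 1 FPKM was reached by 1 at 20 mM and by 3 at 40 mM. The highest count of any of them in 1 treated library was 3010. The median of each gene's highest treated count was 4. With at most 3 counts in each untreated library in place of 0, 8814 genes were undetected.

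Spread between the untreated libraries was small for most expressed genes. The median CV was 4.90% over the 12255 expressed genes, where counting error alone would give 1.99%. It was 6.08% between 1 and 10 FPKM, 3.42% between 10 and 100 FPKM and 3.41% between 100 and 1000 FPKM. It was 12.1% for the 17 genes at 1000 FPKM or more, where counting error was 0.256% and most genes were mitochondrially encoded. In all, 81.4% of expressed genes had a CV under 10%, and 629 (5.13%) had one over 20%. Between 98 and 102 genes differed by more than 2-fold between any pair of libraries.

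**Figure D4:**
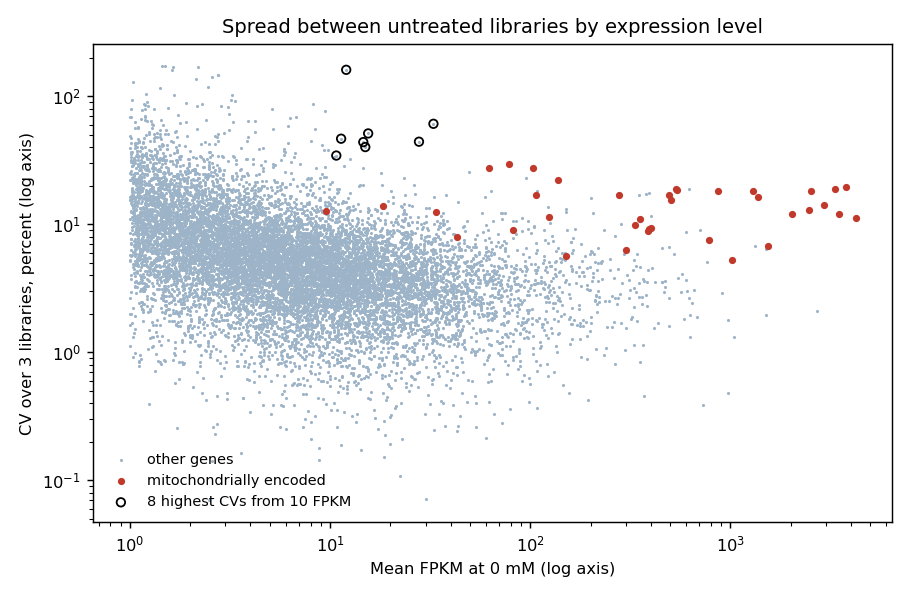
CV of FPKM over the 3 untreated libraries in percent (vertical, log axis) against mean FPKM (horizontal, log axis) for genes at 1 FPKM or more, with mitochondrially encoded genes in red and the 8 highest CVs from 10 FPKM ringed. The cloud narrows toward a median of 3.41% between 100 and 1000 FPKM, and the mitochondrially encoded genes at the right lie above it.

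The 8 genes of highest CV at 10 FPKM or more included unnamed, readthrough, copied and overlapping genes. AL662797 was at 0.621, 1.09 and 34.4 FPKM, so replicate 3 set its CV of 161%. It lies within TUBB on the opposite strand (chromosome 6, 30723105 to 30723877). TUBB, at 546 FPKM, is so much higher that a sum of both says nothing of a shift between them. AC138811 was at 10.7, 49.6 and 38.2 FPKM, a CV of 60.95%, and the overlapping ARL6IP1 had a CV of 3.42%. The readthrough gene RPS10-NUDT3 was at 23.95, 8.18 and 14.4 FPKM. RPS10 had a CV of 13.2% in FPKM, and the summed CPM of both genes had a CV of 5.51%, in another unit. DERPC was at 10.6, 7.12 and 14.5 FPKM, and UTP4 on the other strand had a CV of 1.96%.

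CT45A2 and CT45A3, cancer-testis genes with near-identical copies, had CVs of 46.6% and 44.2%, against 2.14% for the sum of all 9 CT45A genes. The pseudogene SPCS2P4 and the unnamed AL162151 had CVs of 43.8% and 40.1%. Of the 8, 4 overlapped another listed gene, beside 60.6% of all 4218 genes at 10 FPKM or more. Whether reads were divided between overlapping genes and copies in different ways in each library was not tested.

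The 100 highest untreated genes were then followed into the treated libraries. These genes were ranked on the same untreated libraries that enter both comparisons, and both comparisons share them. In edgeR's quasi-likelihood test with Benjamini-Hochberg adjustment over 12394 genes, 31.6% of all genes were called at 20 against 0 mM (16.3% higher and 15.2% lower). At 40 against 0 mM 56.2% were called, 28.8% higher and 27.4% lower. Of the 100 highest genes, 11 were higher and 32 lower at 20 mM, and 7 were higher and 63 lower at 40 mM. The median log2 fold changes of these 100 genes were −0.06 and −0.27, beside 0.00051 and −0.00076 over all tested genes.

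By class at 40 mM, 20 of 26 ribosomal proteins were lower and 0 higher, 12 of 24 mitochondrially encoded genes were lower and 3 higher, and 31 of the 50 others were lower and 4 higher. Ranking on all 9 libraries, chosen after seeing the data, gave 15 higher and 29 lower at 20 mM and 9 higher and 60 lower at 40 mM, with 96 shared genes. Ranking on the 40 mM libraries gave 16 higher and 28 lower at 20 mM and 10 higher and 56 lower at 40 mM, with 92 shared genes. Higher calls at 20 mM were thus near their background share under both of these rankings. Replicate 3 of 40 mM stood apart in mitochondrial transcripts, with MT-CO2 at 4058 FPKM against 2457 and 2865 in the other libraries of that dose. It also stood apart in some nuclear transcripts, in both directions. RPS12 was at 282 FPKM against 545 and 545, and SH3BGRL3 at 424 against 323 and 320. This library had 65738242 total counts, against 75518957 and 75629413 in replicates 1 and 2 of 40 mM. Without it, 11 were higher and 71 lower at 40 mM, and 14 higher and 42 lower at 20 mM.

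Among these 100 genes, the 4 largest called rises at 40 mM were in mitochondrial ribosomal RNA and ferritin. MT-RNR1, the small mitochondrial ribosomal RNA, was at 430.1, 565 and 626 FPKM untreated and at 1348, 1448 and 1714 at 40 mM (log2 fold change 1.44 ± 0.12 SE, edgeR adjusted p = 3.4e-06). MT-RNR2, the large one, rose by 1.04 ± 0.13 (edgeR adjusted p = 5.5e-05). FTL went from 1604, 1518 and 1410 to 2902, 2636 and 2933 FPKM (0.87 ± 0.06, edgeR adjusted p = 1.3e-06) and FTH1 rose by 0.65 ± 0.07 (edgeR adjusted p = 1.9e-05). For MT-RNR1 and FTL the treated and untreated libraries did not overlap. The libraries were selected for poly(A) RNA. Whether changes in mitochondrial ribosomal RNA and tRNA genes, here and below, reflect RNA amount or its capture was not tested.

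Among these 100 genes, the 4 largest called falls at 40 mM were those of VIM, HSP90AB1, MT-TY and HSPA8. VIM fell by 0.87 ± 0.04 (edgeR adjusted p = 8.2e-08), from 453, 479.5 and 479.7 to 259, 254 and 278 FPKM. HSP90AB1 fell by 0.87 ± 0.03, from 971, 965 and 962 to 552, 548 and 526 FPKM (edgeR adjusted p = 2.7e-08). HSPA8 fell by 0.75 ± 0.07 (edgeR adjusted p = 8.8e-06), and so did the mitochondrial tRNA gene MT-TY, by 0.84 ± 0.22 (edgeR adjusted p = 0.0079), whose 40 mM libraries ranged from 224 to 441 FPKM. The untreated and 40 mM libraries of VIM and HSP90AB1 were separated, while those of MT-TY overlapped.

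At 20 mM the largest called changes among these 100 genes were mostly mitochondrial. MT-RNR1 rose by 0.72 ± 0.12, MT-CO2 by 0.63 ± 0.17, MT-ND4 by 0.57 ± 0.13 and MT-ND4L by 0.55 ± 0.15 (edgeR adjusted p = 0.0013, 0.016, 0.0076 and 0.016). The tRNA genes MT-TY, MT-TC and MT-TN fell by 1.01 ± 0.22, 0.86 ± 0.20 and 0.85 ± 0.20 (edgeR adjusted p = 0.0065, 0.0092 and 0.0092). HSPA8 fell by 0.70 ± 0.07 (edgeR adjusted p = 5.8e-05). Mitochondrial transcripts among these genes thus moved in both directions.

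**Figure D5:**
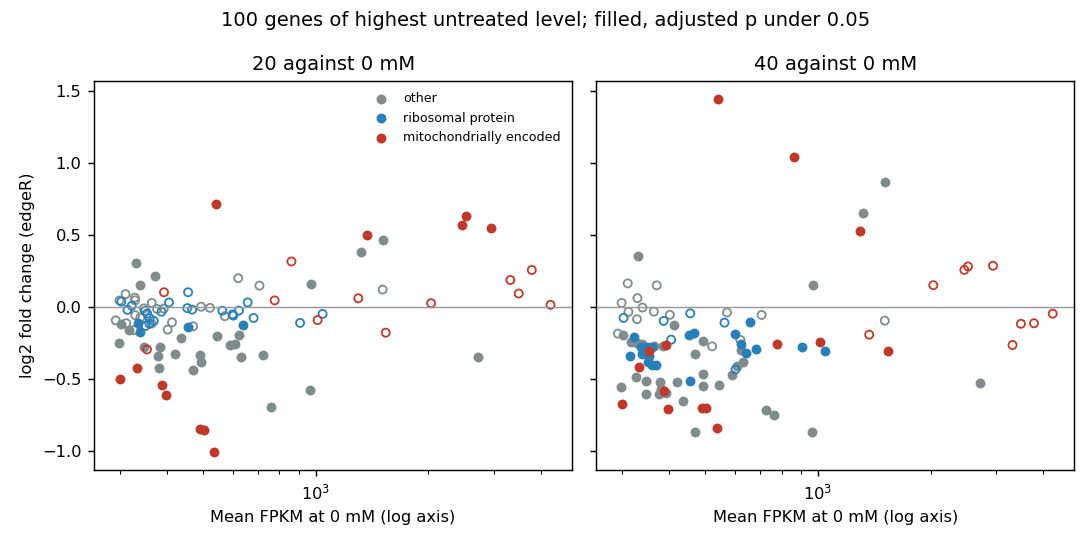
log2 fold change (vertical) of the 100 genes of highest untreated level against their mean untreated FPKM (horizontal, log axis) at 20 and 40 mM, coloured by class and filled where edgeR's adjusted p was under 0.05. At 40 mM 63 of the points are filled below 0 and 7 above it, with MT-RNR1 highest at 1.44.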

How the data were processed

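Oligo(dT) beads selected poly(A) RNA for stranded, paired-end libraries, which were sequenced on an Illumina NovaSeq instrument, per the labels' protocols. The authors deposited 1 table with a read count per gene and library, per the file headers. The same deposited table gives FPKM per gene and library, per the file headers. StringTie 2.1.6 was among the tools, per the submitters' processing notes, which state no role for it. For aligner, genome build, annotation and counting strand, the sources used here give nothing. Promoters on chromosome 8 and the mitochondrial genome were not used.

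Means, SDs and CVs were taken over the 3 untreated libraries (n = 3) with pandas 2.3.3. Sequences are from RefSeq GRCh38.p14. Treated libraries were compared with edgeR 4.0.16 in R 4.3.3 (TMM scaling, 1 fit over 9 libraries, mean FPKM of at least 1, adjusted p under 0.05), after the test was tried on simulated data. DESeq2 1.42.0 and limma 3.58.1 on log2(FPKM + 1) were alternatives to it. Further alternatives were other thresholds, TPM and CPM, no filter, a replicate block and leaving out each library. The members and gene lists were chosen with earlier results of these data known. Genes were named by a rule: the 12 highest coding genes outside the mitochondrial and ribosomal groups, the highest 5 and up to 5 nearly absent members of each list, all members of short lists and of the metformin carrier list, 27 genes of lineage, growth, iron and stress, the 8 highest CVs, and the 4 largest called changes in each direction. Some genes named by this rule are not reported here. Members named beyond this rule, such as single members between 0.1 FPKM and the highest 5, were chosen after their values were seen.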

Additional observations from a re-analysis of the deposited data

How the results depend on the processing

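The number of expressed genes was 12255 at 1 FPKM, 14368 at a threshold of 0.5 FPKM and 6875 at a threshold of 5 FPKM. It was 16741 at 1 TPM and 14790 at 1 CPM, so the number depends on the unit. At 1 FPKM it was 12253 to 12296 when 1 untreated library was left out. Undetected genes numbered 4826, or 8814 when up to 3 counts per library were allowed, and 6502 to 6612 over 2 libraries. The share of the 100 highest genes was 30.5% of FPKM, 21.9% without mitochondrially encoded genes and 18.1% of counts for the 100 genes highest in counts, with 29.8 to 31.1% when a library was left out. The median CV was 4.90% for FPKM, 4.87% for TMM-scaled CPM, 4.96% for TPM and 3.43% at 10 FPKM or more, and 3.81 to 4.53% over 2 libraries. Fewer genes were tested at a filter of 5 FPKM, where 2517 were called at 20 mM and 4245 at 40 mM in place of 3911 and 6962. DESeq2 called 4454 and 7239 and limma on log2(FPKM + 1) 3647 and 6886. Leaving out 1 of the 9 libraries gave 2734 to 4953 calls at 20 mM and 6053 to 7114 at 40 mM, and among the 100 highest genes 32 to 56 and 65 to 82. With a replicate block, edgeR called 4245 genes at 20 mM and 7215 at 40 mM, and 46 and 81 of the 100 highest. The block rests on numbers alone, since deviations of same-numbered libraries had correlations between −0.10 and 0.19, so the pairing is not established. Of 28 lists, 12 kept their count of expressed members at 0.5 FPKM, and the largest rise was 3 members. With 1 library left out, 77 of 84 list counts stayed as they were and the largest change was 1 member. Genes with few counts are limited by depth.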

Other observations

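Some of the 100 highest untreated genes are in no list above and were named after their values were seen. IL13RA2, a decoy receptor for interleukin 13, was at 329 ± 17.2 FPKM, level with SERPINE2. LGALS1, the sugar-binding galectin 1, was at 327 ± 14.3 FPKM, and EEF2, the translocation factor of translation, at 494 ± 13.2 FPKM. Among long noncoding RNAs outside the list, LINC01419 was at 82.3 ± 6.39 FPKM. The 2 genes listed as FP236383, on chromosome 21, were at 393 ± 69.0 and 377 ± 65.05 FPKM, with CVs of 17.5% and 17.3%, lowest in replicate 1 for both. The 2 genes listed as FP671120, also on chromosome 21, were at 348 ± 59.0 and 201 ± 32.5 FPKM, again lowest in replicate 1. The class of the FP236383 and FP671120 genes was taken from the annotation, and what their transcripts are was not tested.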
